A study of Homo sapiens with 1 sample.

Results

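The loci described here were those of 9 genes of the transforming growth factor beta (TGF-β) pathway, namely 3 ligands (TGFB1, TGFB2 and TGFB3), 2 receptors (TGFBR1 and TGFBR2), 3 SMAD proteins (SMAD2, SMAD3 and SMAD7) and 1 target (TGFBI), out of 20033 protein-coding genes. Every ATAC-seq peak was taken whose summit lay inside the gene record or within 100 kb of either end, whatever its strength. This gave 238 of 88615 peaks on the 24 primary chromosomes (0.269%), and no peak belonged to more than 1 of the genes. Chromatin accessibility had been measured with the Tn5 transposase, which inserts adapters into open DNA, in 786-O, a human cell line long established from a clear cell renal cell carcinoma. By the label, the cells carried an empty vector, although the peak names in the file carry a wild-type tag, and they were the control for overexpression of DPF3a, the short form of a subunit of the SWI/SNF chromatin remodeling complex. The DPF3a library is not analysed here. With 1 library and no replicate, no groups were compared and no p-value is given, and all intervals are 95% intervals for counting error only.

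TGF-β ligands are secreted in a latent form and, after activation, bind the type II receptor TGFBR2, which recruits and phosphorylates the type I receptor TGFBR1. The activated receptor phosphorylates SMAD2 and SMAD3, which join SMAD4, move to the nucleus and bind DNA together with other factors such as AP-1. SMAD7 is induced by the pathway and blocks the receptors, and TGFBI encodes an extracellular matrix protein named for its induction by TGF-β. In the kidney and in carcinoma cells the pathway is best known for fibrosis and for the epithelial-mesenchymal transition.

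The strength of a peak is its fold, which is the read pileup at the summit plus 1, divided by the genome-wide background pileup of 0.941 plus 1. The median peak of the library had a pileup of 20 and a fold of 10.8. A pileup of that size has a counting interval of 6.81 to 16.4 in fold, so small differences between peaks could not be resolved at this depth. Of 8 renal and clear cell carcinoma markers, 5 had a promoter peak at any transcript (62.5%, compared with 61.4% of all protein-coding genes), with VIM (fold 47.9) the highest and NDUFA4L2 (8.24) the lowest. At the canonical transcript it was 3 of 8 (37.5%, compared with 52.2%), namely PAX8 (fold 31.9), PAX2 (22.7) and EPAS1 (21.6), without VIM and NDUFA4L2. The count thus does not set the library apart as renal. CA9, EMX2 and LHX1 had none, and for LHX1 no peak was listed in the whole window. None of the 9 markers of leukocytes, endothelium, liver, muscle and the nervous system (PTPRC, CD3E, CD79A, PECAM1, CDH5, ALB, MYOD1, OLIG2 and NEUROD1) had a promoter peak.

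The sequences under the summits at the start sites of 6 of the genes are shown first, because the promoters are compared first. They are hg38 bases of the forward strand within 50 bp of the summit, with annotated untranslated sequence left out, and TGFB1 and TGFB3 are transcribed from the other strand. Capitals mark the letters of the motifs searched for, here GGGCGG or CCGCCC (SP/KLF) and CATTCC or GGAATG (TEAD).
TGFBR2 promoter, chr3:30606476-30606576: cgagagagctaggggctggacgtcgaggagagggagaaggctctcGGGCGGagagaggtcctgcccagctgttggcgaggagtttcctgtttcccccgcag
TGFB2 promoter, chr1:218345105-218345205: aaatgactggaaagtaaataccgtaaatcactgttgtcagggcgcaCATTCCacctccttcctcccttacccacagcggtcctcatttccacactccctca
TGFBR1 promoter, chr9:99104911-99105011: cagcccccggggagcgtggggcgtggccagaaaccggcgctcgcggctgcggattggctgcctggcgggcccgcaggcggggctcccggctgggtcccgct
TGFBI promoter, chr5:136028912-136028987: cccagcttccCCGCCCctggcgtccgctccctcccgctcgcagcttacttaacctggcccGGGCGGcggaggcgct
TGFB1 promoter, chr19:41353971-41354071: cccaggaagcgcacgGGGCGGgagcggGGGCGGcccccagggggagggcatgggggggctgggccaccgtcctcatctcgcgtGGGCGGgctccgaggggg
TGFB3 promoter, chr14:75982006-75982106: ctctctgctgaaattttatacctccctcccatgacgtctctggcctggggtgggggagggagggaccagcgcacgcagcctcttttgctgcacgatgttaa

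The TGFBR1 and TGFB1 summits had a GC content of 80.2% and 81.2%, and the TGFB2 summit one of 49.5%. The next set holds strong sites away from the canonical start sites and sites with AP-1 letters, to which the results on TGFBI, TGFB2, SMAD3 and SMAD7 refer. Those of TGFBI introns 8 and 12 and of SMAD7 intron 2 lay at annotated starts of other transcripts of these genes. Here the capitals mark GTCTG or CAGAC (SMAD box), TGACTCA or TGAGTCA (AP-1), TGTGGTT or AACCACA (RUNX) and ACGTG or CACGT (hypoxia response element).
TGFBI intron 12, chr5:136058582-136058682: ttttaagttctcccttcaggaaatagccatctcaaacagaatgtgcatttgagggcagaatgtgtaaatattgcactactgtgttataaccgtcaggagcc
TGFBI intron 8, chr5:136053697-136053797: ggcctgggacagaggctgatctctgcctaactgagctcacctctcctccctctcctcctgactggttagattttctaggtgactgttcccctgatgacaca
TGFBI upstream, chr5:136017108-136017208: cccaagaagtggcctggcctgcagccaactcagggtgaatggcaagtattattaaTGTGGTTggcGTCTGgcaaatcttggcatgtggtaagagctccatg
TGFB2 intron 1, strongest, chr1:218398018-218398118: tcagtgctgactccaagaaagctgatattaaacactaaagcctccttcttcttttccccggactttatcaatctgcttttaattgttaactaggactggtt
TGFB2 downstream, chr1:218496712-218496812: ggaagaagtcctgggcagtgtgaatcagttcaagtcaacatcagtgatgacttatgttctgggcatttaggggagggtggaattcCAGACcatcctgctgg
TGFB2 intron 1, AP-1, chr1:218377390-218377490: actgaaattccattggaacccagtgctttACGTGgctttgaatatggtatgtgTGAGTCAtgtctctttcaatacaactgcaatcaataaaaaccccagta
SMAD3 intron 1, strongest, chr15:67144721-67144821: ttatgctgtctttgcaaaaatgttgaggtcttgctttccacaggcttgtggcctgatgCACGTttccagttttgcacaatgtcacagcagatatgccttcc
SMAD3 intron 1, AP-1, chr15:67107092-67107192: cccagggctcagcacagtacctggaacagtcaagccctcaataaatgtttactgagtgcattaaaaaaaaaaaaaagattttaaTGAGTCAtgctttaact
SMAD7 intron 2, chr18:48942717-48942817: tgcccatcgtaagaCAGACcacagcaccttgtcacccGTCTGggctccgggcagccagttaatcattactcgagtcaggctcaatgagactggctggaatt
SMAD7 upstream, AP-1, chr18:49017199-49017299: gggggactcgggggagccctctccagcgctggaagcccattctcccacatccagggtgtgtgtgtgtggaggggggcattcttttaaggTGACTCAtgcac

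The last set shows the sites of the SMAD palindrome GTCTAGAC that lay inside a peak, with the palindrome in capitals.
SMAD7 upstream, palindrome, chr18:48952207-48952236: gtcacgtggccGTCTAGACaccctgtcgct
TGFB2 intron 1, palindrome, chr1:218375109-218375138: tttagtcatctGTCTAGACagacgagttca

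To ask how open the genes were at their start sites, promoter peaks were looked for. A promoter began 1 kb before each transcription start site (TSS) and ended 100 bp after it, and the summit had to lie inside it. All 9 genes had such a peak at the TSS of at least 1 transcript, compared with 61.4% of all protein-coding genes. At the canonical transcript it was 8 of 9, compared with 52.2%. The exception was SMAD7. The fold at the canonical promoter ran from 70.1 for TGFBR2 to 10.8 for TGFB3, a ratio of pileups of 6.75 (4.20 to 11.4). All protein-coding genes with such a peak had a median of 26.3 (interquartile range, 16.0 to 39.2).

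Both receptors and the ligand TGFB2 stood above this range. TGFBR2, which binds the ligand, had a promoter peak at chr3:30605884-30607603 with a fold of 70.1 (58.8 to 82.9), higher than 96.4% of the genes with a canonical promoter peak. TGFBR1, the kinase that it activates, had one at chr9:99104243-99106169 with a fold of 50.5 (41.0 to 61.5). Both summits lay just upstream of the TSS, by 75 bp and 152 bp. The promoter of TGFB2, at chr1:218344717-218346418, had a fold of 54.1 (44.3 to 65.4) and its summit 181 bp upstream.

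The other genes with a canonical promoter peak lay between the quartiles or below them. SMAD2, which carries the signal from the receptor to the nucleus, had a fold of 23.2 (17.0 to 31.0) at chr18:47929883-47931723. Its partner SMAD3 had a fold of 19.1 (13.5 to 26.2) at chr15:67065060-67066008, and the target TGFBI one of 18.0 (12.6 to 25) at chr5:136028516-136029682. The promoters of the other two ligands were below the lower quartile. TGFB1, the most widely expressed ligand, had a fold of 13.9 (9.27 to 20.1) at chr19:41353605-41354354, and that peak also lay in a promoter of TMEM91. TGFB3 had a fold of 10.8 (6.81 to 16.4) at chr14:75981674-75982878, close to the median of all peaks.

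In the order TGFBR2, TGFB2, TGFBR1, SMAD2, SMAD3, TGFBI, TGFB1 and TGFB3, the interval of the ratio between neighbours excluded 1 at a single step. That step was from TGFBR1 to SMAD2, with a ratio of 2.20 (1.53 to 3.22). The other neighbours had ratios from 1.06 to 1.31, with intervals that included 1. The order thus had an upper group of both receptors and TGFB2 and a lower group of 5 genes, within each of which neighbours could not be ranked at this depth. Genes further apart within a group were not all alike. In the lower group, SMAD2 over TGFB1 had a ratio of 1.69 (1.02 to 2.86), which excluded 1. Because the fold refers to 1 genome-wide background, each promoter was also set against the median fold of all peaks within 5 Mb, which ran from 9.79 around SMAD3 to 13.4 around TGFBI. The promoter of TGFBR2 was at 6.80 times its local median, TGFB2 at 4.77 times and TGFBR1 at 4.45 times. SMAD2 was at 2.25 times, SMAD3 at 1.95 times, and TGFBI, TGFB1 and TGFB3 at 1.35, 1.17 and 1.05 times.

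**Figure D1:**
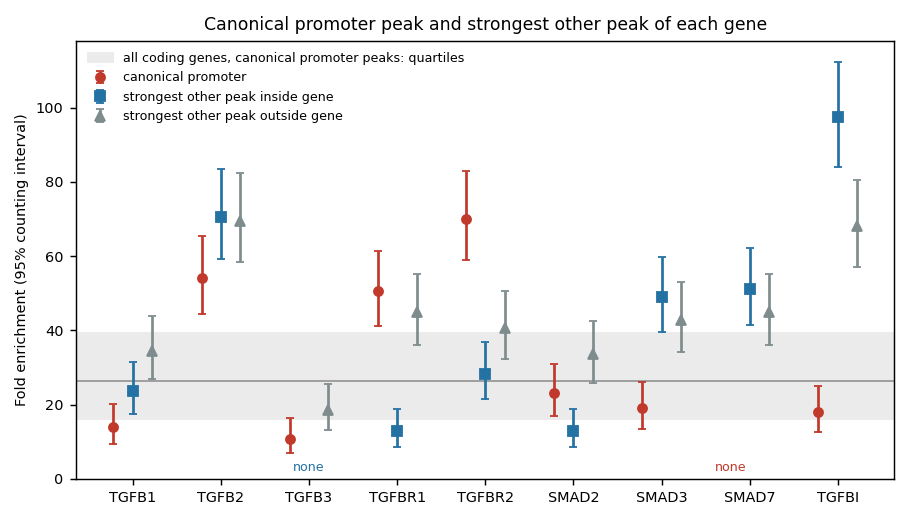
Fold enrichment (linear axis from 0) of the canonical promoter peak (circles), the strongest other peak inside the gene record (squares) and the strongest peak outside it within 100 kb (triangles) for each of the 9 genes, with 95% counting intervals and, in gray, the median and quartiles of canonical promoter peaks over all protein-coding genes. TGFBR2, TGFB2 and TGFBR1 have the highest promoters, TGFBI has its strongest site inside the gene at 97.4, and SMAD7 has no canonical promoter peak.

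SMAD7, the inhibitor of the receptors, was the only member whose canonical TSS (chr18:48950965, minus strand) lay in no peak. The nearest summits were 951 bp downstream in exon 1, with a fold of 11.3, and 1768 bp upstream, with a fold of 14.4 (chr18:48951451-48953248). The interval of the upstream peak reached into the canonical promoter (chr18:48950865-48951965) although its summit did not. The peak that gave SMAD7 a promoter peak of fold 51.0 (41.5 to 62.1) lay in intron 2, 8.20 kb downstream, at the start of a short transcript annotated as a retained intron. The highest promoter fold of TGFBI over all its transcripts was of the same kind, at a retained-intron transcript 29.6 kb into the gene. For SMAD3 it was 37.6 (29.5 to 47.2), at the start of a shorter protein-coding transcript 62.5 kb into the gene. The canonical promoter is therefore the one compared between genes.

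To ask where else the loci were open, the 238 peaks were placed relative to the genes. Of these, 16 lay in a promoter of the member itself, 14 in the promoter of another protein-coding gene, 84 in the body of the member and 124 in the flanks. Inside the members' canonical transcripts, 79 summits were in introns and 5 in exons. The median fold was 11.3, and 70 peaks had a fold above 20 (29.4%; 23.7 to 35.6), compared with 26% of all peaks. Their median width was 644 bp, compared with 522 bp in the library. A pileup under 15, where a fold is least certain, was found at 32.8% of the members' peaks and at 35.7% of all peaks. For 169 of the 238 (71.0%) the nearest TSS of a protein-coding gene was that of the member, and the rest lay nearer to a neighbor.

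**Figure D2:**
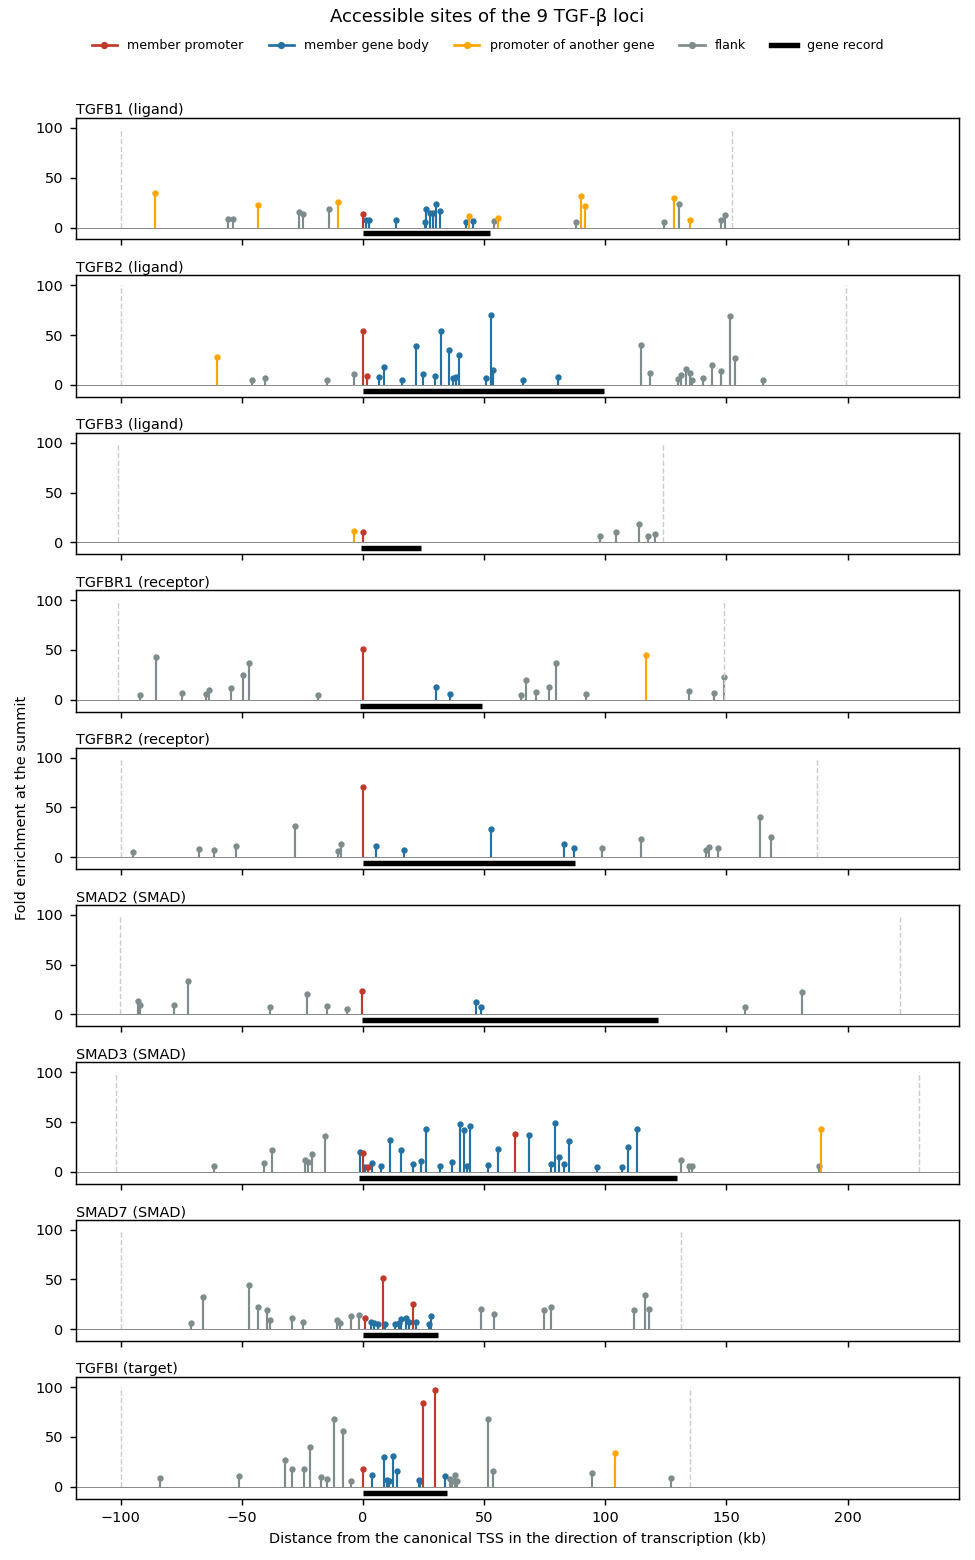
Peaks of the 9 loci, drawn as lines at the distance of the summit from the canonical TSS in the direction of transcription (x axis, kb) with the fold enrichment as height (y axis, linear), and colored as promoter of the member, body of the member, promoter of another gene or flank. Black bars are the gene records and dashed lines the limits at 100 kb from each end. SMAD3 has peaks along its whole body, TGFB3 and SMAD2 have long stretches without a peak, and TGFBI has its strongest peaks at the far end of the gene.

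The sites away from the canonical start sites were then set against the canonical promoters. TGFBI, the matrix protein, had stronger sites inside the gene and upstream of it than at its start. Its strongest peak was in intron 12 (chr5:136056859-136059282; fold 97.4, 84.0 to 112), higher than 99.8% of all peaks in the library, and the pileup was 5.53 times that of the promoter (3.82 to 8.22). A further peak in intron 8 (chr5:136053035-136054177) had a fold of 83.5 (71.2 to 97.3). Their summits lay 135 bp and 196 bp from annotated starts of other TGFBI transcripts. Upstream, peaks at 11.8 kb and 8.35 kb had folds of 68.0 (57.0 to 80.6) and 56.2 (46.2 to 67.7), and a peak 51.7 kb downstream of the TSS, past the end of the gene, had a fold of 67.5 (56.5 to 80.1). All 5 strong peaks just named had TGFBI as the nearest coding gene. In all, 10 peaks of the TGFBI locus were stronger than its promoter, 4 inside the gene and 6 outside it. Those outside included the promoter of SMAD5 (fold 33.5, 25.9 to 42.6).

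SMAD3 had the most peaks inside its gene, 30, of which 25 were in intron 1. The folds in that intron ran from 5.15 to 49.0 with a median of 10.8, and 11 of them were above 20 and 5 above 40. The strongest, 79.2 kb from the TSS (chr15:67144428-67145391), had a fold of 49.0 (39.7 to 59.8) and 2.61 times the pileup of the promoter (1.76 to 3.95). Another 3 lay close together between 39.9 and 44.1 kb, with folds of 47.9, 42.3 and 45.9. A peak in intron 5, 113 kb from the TSS, reached 42.8 (34.1 to 53.0). Thus 14 peaks inside the gene had a higher pileup than the promoter, and the strongest outside the gene, also at 42.8, was the shared promoter of AAGAB and IQCH.

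TGFB2 had 17 peaks inside its gene, 14 of them in intron 1, with folds from 5.15 to 70.6 and a median of 12.9. The strongest lay 52.7 kb from the TSS (chr1:218397467-218398546; fold 70.6, 59.3 to 83.4). Its pileup was 1.31 times that of the promoter, with an interval of 1.01 to 1.70 that barely excluded 1. A peak 151 kb from the TSS, downstream of the gene (chr1:218496425-218497115), had a fold of 69.6 (58.4 to 82.3) and could not be told from the promoter in strength (ratio 1.29, 0.990 to 1.68). A peak 32.1 kb into the gene whose summit held AP-1 letters had a fold of 54.6 (44.8 to 66.0). TGFB2 thus had sites of fold above 40 at its start, inside intron 1 and downstream, and 33 of its 36 peaks had it as the nearest coding gene.

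SMAD7 had 15 peaks inside a gene of 31.1 kb, most of them weak. Apart from the intron 2 peak of fold 51.0, a peak in intron 3 at a further internal start (chr18:48929981-48930824; fold 25.8, 19.2 to 33.9) was the only one above 20. The flanks held 7 peaks above 20. The strongest of these was 47.3 kb upstream (chr18:48996829-48998938; fold 44.8, 36.0 to 55.2), and another 66.3 kb upstream, with AP-1 letters at its summit, had a fold of 32.5 (25 to 41.5).

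At both receptors the promoter was the strongest site within 100 kb. With a flank of 200 kb, a peak of fold 99.97 became the strongest of TGFBR1. The strongest peak within TGFBR1 was in intron 3 (fold 12.9, 8.44 to 18.9), and the promoter had 4.04 times its pileup (2.56 to 6.61). Within TGFBR2 it was also in intron 3 (chr3:30657907-30660204; fold 28.3, 21.4 to 36.8), and the promoter had 2.5 times its pileup (1.81 to 3.49). Outside TGFBR2, a peak 164 kb from the TSS reached 40.7 (32.3 to 50.7) but was nearest to GADL1, and the promoter had 1.73 times its pileup (1.30 to 2.32). Outside TGFBR1, the strongest peak was the shared promoter of ALG2 and SEC61B (44.8, 36.0 to 55.2), which could not be told from the TGFBR1 promoter (ratio 0.887, 0.655 to 1.20). SMAD2 resembled the receptors inside the gene, where its strongest peak had a fold of 12.9 and the promoter 1.83 times its pileup (1.09 to 3.15). In its flank, a peak 72.5 kb upstream (chr18:48002818-48004432) had a fold of 33.5 (25.9 to 42.6), with an interval of the ratio to the promoter (1.45, 0.976 to 2.19) that included 1.

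TGFB1 and TGFB3 had no strong site that was nearest to them. In the window of TGFB1 there were 11 other protein-coding genes, and 9 of the 32 peaks lay in their promoters, including the strongest, at DMAC2 (fold 34.5, 26.8 to 43.8). Only 3 of the 32 peaks had TGFB1 as the nearest coding gene, and the strongest of those was the promoter. The gene record of TGFB1 runs well past the end of its canonical transcript (chr19:41330323-41353922), and 9 of the 12 summits inside the record lay beyond it. The strongest of these, 30.3 kb from the TSS, had a fold of 23.7 (17.4 to 31.5) and lay nearest to CCDC97. TGFB3 had 7 peaks, of which its promoter was the only one inside the gene and the only one nearest to it. Another was the promoter of IFT43, and the strongest, of fold 18.6 (13.1 to 25.6), lay 114 kb away and nearest to TTLL5. Since the strongest of several peaks is the highest of several counts, all of these ratios to the promoter are biased toward the peak that was picked.

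The density of peaks was compared with that around all protein-coding genes. Over the 2434 kb of the 9 windows there were 9.78 peaks per 100 kb, whereas the median gene had 4.44 (interquartile range, 2.47 to 6.88), and 7 of 9 members were above the median gene. SMAD7 had the highest density, 34 peaks or 14.7 per 100 kb, above 99.3% of genes. TGFBI had 32 peaks (13.6 per 100 kb, above 98.8%). SMAD3 with 42 peaks and TGFB1 with 32 both had 12.7 per 100 kb, above 97.9% of genes, and TGFB2 with 36 had 12.0, above 97.1%. These 5 genes and both receptors were above the upper quartile. The density counts all peaks of a window, whichever gene they are nearest to. Only 3 of the 32 peaks around TGFB1, with 11 other coding genes in its window, were nearest to it, compared with 40 of 42 at SMAD3.

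The receptors came next. TGFBR1 had 22 peaks (8.79 per 100 kb, above 87.2% of genes), and TGFBR2 had 20 (6.96, above 75.7%). Of these peaks, only 8 of 22 had TGFBR1 as the nearest coding gene, and 15 of 20 had TGFBR2. SMAD2 with 13 peaks (4.03, above 45.0%) and TGFB3 with 7 (3.11, above 32.9%) were below the median gene. The longest stretch without a summit was 109 kb at SMAD2, across most of the gene body, and 97.8 kb at TGFB3, across its whole canonical transcript. The order by density was not the order by promoter fold, as SMAD7 had the densest window without a canonical promoter peak and TGFBR2 the strongest promoter with 6.96 peaks per 100 kb.

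**Figure D3:**
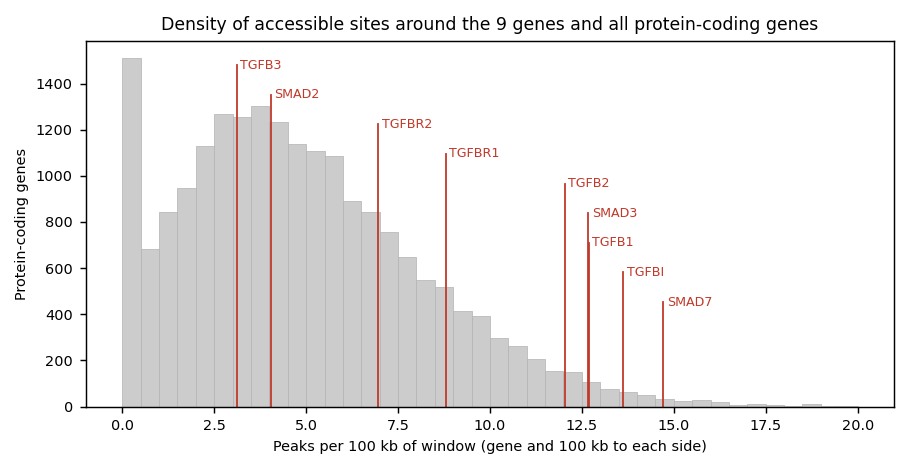
Number of protein-coding genes (y axis) by peaks per 100 kb of the gene and 100 kb to each side (x axis, bins of 0.5, with genes at 20 or more in the last bin), with the 9 members as red lines. SMAD7, TGFBI, TGFB1, SMAD3 and TGFB2 lie in the right tail from 12.0 to 14.7, and TGFB3 and SMAD2 lie near the center at 3.11 and 4.03.

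By role, the 3 ligand loci held 75 peaks, the receptors 42, the SMADs 89 and the target 32. The median fold of their peaks differed little, at 11.3, 10.8, 11.3 and 12.6. The roles differed more in how many of the peaks lay nearest to the member, which was 49.3% for the ligands, 54.8% for the receptors, 92.1% for the SMADs and 84.4% for TGFBI. Genes within a role also differed in this, with 3 of 32 at TGFB1, 33 of 36 at TGFB2 and 1 of 7 at TGFB3. At TGFBR1 it was 8 of 22 and at TGFBR2 15 of 20. The canonical promoter folds of the receptors, 50.5 and 70.1, were above those of the SMADs, 19.1 and 23.2, and of the target, 18.0. The ligands ran from 10.8 to 54.1 and so overlapped both ends. With 1 to 3 genes for each role, these are descriptions of the genes and not of the roles.

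Short motifs in either orientation were counted up to 50 bp from every summit, and a match of the letters is a description and not a binding site. The AP-1 letters TGACTCA or TGAGTCA were present at 33 of the 238 summits (13.9%; 9.74 to 18.9), compared with 15.7% of all peaks. All 33 were outside promoters, where the share was 16.1% (11.3 to 21.9) at the members and 18.0% in the library. None of the 33 member summits at a promoter of any annotated gene, noncoding genes included, held the letters (upper limit 10.6%), and 6.0% of all promoter summits did. TGFBR2 had the letters at 6 of 20 summits, SMAD7 at 6 of 34, TGFB2 at 6 of 36, SMAD3 at 4 of 42 and TGFBI at 2 of 32. TGFB1, TGFBR1 and SMAD2 had 3 each and TGFB3 none. All 3 in the window of TGFB1 and all 3 in that of TGFBR1 lay nearest to another coding gene. In intron 1 of SMAD3, 1 of 25 summits held them, the peak of fold 42.3 shown above, and in intron 1 of TGFB2, 3 of 14.

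Member peaks with AP-1 letters did not have a higher median fold than those without. Outside promoters the median was 9.28 for the 33 with the letters and 10.3 for the 172 without. In the library it was 11.3 with and 9.28 without. No interval was computed for these medians, and the difference among the members was small and not tested. Among member peaks with a fold above 20, 9 of 70 held the letters (12.9%; 6.05 to 23), compared with 17.3% of such peaks in the library. Neither the intron 12 and intron 8 peaks of TGFBI nor the strongest peaks of TGFB2 and SMAD3 held them. TGFBR2 was the only member with AP-1 letters within its canonical promoter, where they occurred at 2 places more than 50 bp from the summit, and 12.8% of all canonical promoters held them.

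The SMAD box GTCTG or CAGAC was found at 52 summits (21.8%; 16.8 to 27.6), compared with 21.3% of all peaks. It was present at 12 of 34 summits of SMAD7 (35.3%), 7 of 22 of TGFBR1 (31.8%) and 10 of 42 of SMAD3 (23.8%). SMAD2 had it at 3 of 13 and TGFBI at 7 of 32. The shares were lower at TGFB2 (6 of 36), TGFB3 (1 of 7), TGFB1 (4 of 32) and TGFBR2 (2 of 20). These shares of single genes rest on few summits, carry no interval and were not tested. They count every summit of a window, whichever gene it is nearest to. Only 8 of the 22 summits of TGFBR1 were nearest to that gene, and those with the box included summits nearest to COL15A1 and SEC61B. The strongest peak of SMAD7, in intron 2, held it at 2 places. With 5 letters it occurs often, and 87.4% of all canonical promoters and 6 of the 9 members' promoters contained it, without SMAD2, TGFB3 and TGFBR2. TEAD letters were present at 9.66% of member summits (9.41% of all), RUNX at 6.30% (5.25%), the hypoxia response element at 7.98% (7.04%) and SP/KLF at 7.98% (8.45%). ETS letters were rare, at 0.840% (1.51%), and the ZEB and SNAIL E-box CAGGTG or CACCTG stood at 4.62% (2.33 to 8.12) against 7.30%. In every case the interval for the members at this width included the share of all peaks. TEAD letters were most frequent at SMAD3, with 8 of 42 summits, among them peaks of fold 47.9 and 42.8.

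**Figure D4:**
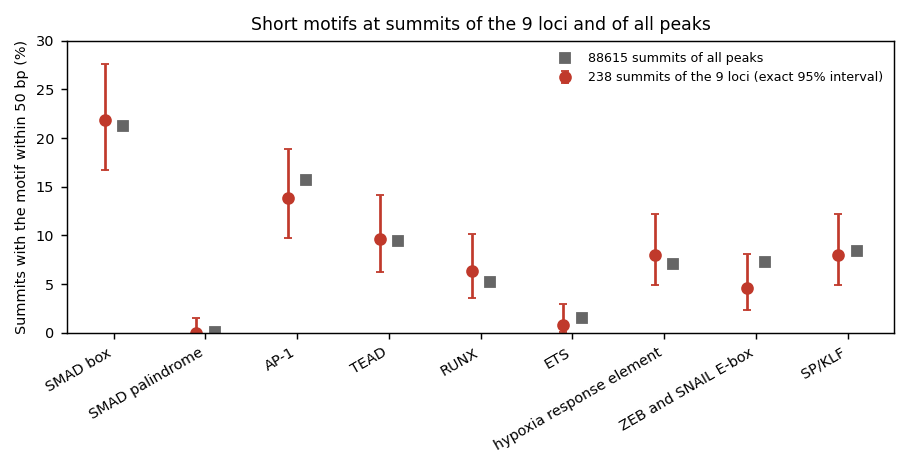
Share of summits with each short motif within 50 bp on either strand (y axis, percent) for the 238 member summits (circles with exact 95% intervals) and for all 88615 summits (squares). Each member interval includes the library share, with 21.8% against 21.3% for the SMAD box and 13.9% against 15.7% for AP-1.

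The full palindrome GTCTAGAC was at no member summit (0 of 238; upper limit 1.54%) and at 0.0937% of all summits. In the member windows it occurred at 15 places, of which 2 lay inside a peak, while peaks covered 7.69% of the bases. One was 1253 bp upstream of the TSS of SMAD7 (chr18:48952218-48952225), in the peak of fold 14.4 that lies next to the start site, 515 bp from its summit. The other was in intron 1 of TGFB2 (chr1:218375120-218375127), in a peak of fold 8.76 and 307 bp from the summit. SMAD7 had 4 of the 15 places, the most of the 9 genes. No canonical promoter of a member held the palindrome, and 135 of 20033 promoters (0.674%) did.

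The base composition of the canonical promoters differed widely among the members. GC content was 76.9% at SMAD2, 67.1% at TGFB1 and 65.3% at TGFBR1, but 47.6% at TGFBR2 and 42.3% at TGFB2, compared with a median of 54.6% over all canonical promoters (interquartile range, 48.4 to 60.8). The strongest promoters, of TGFBR2 and TGFB2, were the poorest in GC among the 9, whereas TGFBR1, next in fold, was at 65.3%. Within 50 bp of its summit, the TGFBR2 promoter also had 65.3%, so its low value held for the whole promoter only. The SP/KLF letters GGGCGG or CCGCCC were in 8 of 9 promoters, with 14 places at SMAD2 and none at TGFB2, and in 72.4% of all.

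To set the members beside the rest of the pathway, promoter peaks were counted in 56 further genes in 5 lists. Of these, 45 had a promoter peak at any transcript (80.4%), and 40 at the canonical one (71.4%), compared with 61.4% and 52.2% of all protein-coding genes. The median fold was 25.8. Among other SMADs and nuclear corepressors all 9 had one, from SMAD9 (fold 8.76), a SMAD of the BMP branch, to the corepressor SKI (51.5). SMAD4, the common partner of SMAD2 and SMAD3, had a fold of 20.6 (14.8 to 28.0).

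Among activin and BMP receptors and co-receptors, 8 of 11 had a promoter peak (72.7%), compared with 61.4% of all protein-coding genes. ACVR1 was the highest (41.7) and ACVR1C the lowest (8.76). ACVRL1 and ENG, a receptor and a co-receptor best known from endothelium, and BMPR1B had none. Of the genes for ligand processing and activation, 8 of 11 had a peak (72.7%) but only 4 at the canonical TSS (36.4%, compared with 52.2% of all). The integrin ITGAV was the highest (58.2) and THBS1, which encodes thrombospondin, the lowest (6.18), while ITGB6, LRRC32 and NRROS had none. Of the regulators of the receptors, 10 of 11 had one (90.9%), from DAB2 (68.0) down to the ubiquitin ligase SMURF2 (15.5), and its relative SMURF1 had none. Of the known transcriptional targets, 13 of 17 had one (76.5%). ID2 was the highest (57.7) and LTBP2 the lowest (8.76), and the cell cycle inhibitors CDKN1A and CDKN2B, the collagen gene COL1A2 and ID1 had none.

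The distance limit of 100 kb left peaks of the same size on both sides. The 12 peaks in the last 10 kb inside the limit had folds from 5.15 to 23.2 with a median of 8.76, and the 14 peaks in the first 10 kb beyond it from 5.15 to 18.0 with a median of 9.79.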

How the data were processed

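ATAC-seq peaks came from 1 library of 786-O cells, labelled as empty-vector control, whose peak names carry a wild-type tag. Per the labels and the published methods, the authors used fastp for trimming and Bowtie2 2.3.4.3 for alignment to hg38, removed mitochondrial, low-quality and duplicate reads, and called peaks with MACS2 2.2.6 on this library against a genome-wide background. Whether reads were shifted to the Tn5 cut is not given in the sources used here. The deposited ratio, called fold here, compares the pileup at the summit with the background, and the deposited −log10 p-value, −log10 q-value and score follow from the same pileup. The list held 88676 peaks with a lowest score of 52. The total number of reads is unknown.

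Pileups were recovered from the folds and were whole numbers to within 1.83e-05. Folds carry the exact Poisson 95% interval of their pileup, 2 pileups were compared by the exact conditional binomial interval of their ratio, and shares carry exact (Clopper-Pearson) intervals. Reads are not independent molecules, so these cover counting error only. Genes, transcripts and untranslated regions came from GENCODE release 44 and sequences from hg38. Canonical transcripts are those tagged in the annotation. Named were all 9 members with their promoter peaks and strongest peaks in the body and flanks, and of the pathway lists the genes of highest and lowest promoter fold and those without a promoter peak, and SMAD4 and further strong peaks of the members were added after their values were seen. 1 further renal marker is not reported here and was not counted. The members, the lists and the motifs were chosen with earlier results of these data known. The alternatives were other flanks, score minimums of 100 and 200, other promoter and motif windows, the canonical TSS, overlap in place of the summit, and the whole chromosome in place of 5 Mb. Scripts were tested on simulated data. All steps ran in Python 3.11.15 (pandas 2.3.3, numpy 2.4.6, matplotlib 3.10.9 and scipy 1.17.1).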

Additional observations from a re-analysis of the deposited data

How the results depend on the processing

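No paired analysis was possible because only 1 library was at hand. The count of 238 peaks depended on the limits, with 97 inside the gene records alone and 117 at a score above 200. The share of member summits with AP-1 letters followed the width searched, at 28.2% with 100 bp to each side (25.7% of all peaks) and 6.30% with 25 bp (8.09%), so it was above the library at the widest setting and below it at the others. With 25 bp, the SMAD box fell below the library (9.24% and 11.3%), as did TEAD (4.62% and 4.73%), and SP/KLF (5.46% and 4.55%) and ETS (0.840% and 0.739%) rose above it. Canonical promoter peaks in place of those of any transcript changed the highest promoter fold of SMAD3 from 37.6 to 19.1, that of TGFBI from 97.4 to 18.0, and left SMAD7 without one. At a score above 200, 8 of 9 members and 39 of 56 pathway genes still had a promoter peak, compared with 52.0% of all protein-coding genes. With only peaks nearest to the member, an alternative chosen after seeing the data, 169 peaks were left, and the strongest at TGFB1 and TGFB3 was the promoter. A flank of 200 kb raised the count to 298 and that of TGFBI from 32 to 49, and the strongest peak of TGFBR1 from 50.5 to 99.97. A flank of 50 kb lowered the counts of TGFB3 from 7 to 2, TGFBR1 from 22 to 12, TGFBR2 from 20 to 11 and SMAD2 from 13 to 8, and the strongest peaks of TGFB3 and SMAD2 to 11.3 and 23.2. The depth limits the ranking of neighboring promoters and of peaks near the lowest fold.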
